A study of Homo sapiens with 6 samples.

Results

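The genes of DNA replication and S phase were examined in MDA-MB-231 cells, a triple-negative breast cancer line of mesenchymal character, after knockdown of the chromatin protein HMGA2. The set held 47 of the 61806 genes in the deposited table. Members were chosen by gene symbol for known roles in licensing, helicase activation, DNA synthesis, Okazaki fragment maturation, nucleotide supply, cyclin E or chromatin assembly. That rule uses no measured value, but the choice was made with earlier results of these data known. All 47 were found in the table and all 47 passed the filter on low counts. RNA was sequenced in 6 libraries, 2 from each of 3 groups: the control shNC and the knockdown lines shHMGA2-1 and shHMGA2-2. Both knockdown lines carried a lentiviral short hairpin RNA (shRNA) and were selected with puromycin. According to the study's methods, stable lines were expanded from a single clone, so that the shRNA and the clone cannot be told apart in either line. The titles of the controls read shNC while their library names read wild type, and the library names of shHMGA2-1 carry SH2. Nothing in the sources used here says whether the 2 libraries of a group came from separate cultures, so p-values measure only the spread between these libraries.

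Before S phase, the origin recognition complex, CDC6 and CDT1 load the MCM2 to MCM7 helicase onto DNA, a step called licensing, and geminin (GMNN) blocks CDT1 once S phase has begun. CDC45 and the GINS complex then turn the helicase on. The DNA polymerases copy both strands, held by the sliding clamp PCNA and served by the clamp loader RFC and the single-strand binding complex RPA. Many of these genes are transcribed late in G1 and in S phase under E2F transcription factors, so their summed RNA is widely read as a mark of proliferating cells. In bulk RNA, fewer cells in S phase and less RNA per cell in S phase cannot be told apart.

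Libraries held 16461178 to 17167293 counts. The share taken by the 47 members together was lowest for the controls, at 0.545% and 0.544%. Every knockdown library lay above these: shHMGA2-1 gave 0.576% and 0.564%, shHMGA2-2 gave 0.583% and 0.584%. These are shares of raw totals. The scaling used below (TMM) also divides by a factor, which was smallest for the controls (0.959 and 0.958). It reached 1.01 and 0.992 for shHMGA2-1 and 1.03 and 1.05 for shHMGA2-2, which narrows that gap. HMGA2 itself stood at 131 and 133 CPM (counts scaled to library size with TMM factors) in shNC, with 49.5 and 58.3 in shHMGA2-1 and 25.7 and 27.6 in shHMGA2-2. It was lower by 1.29 ± 0.09 (standard error of the fit, SE) on the log2 scale in shHMGA2-1 and by 2.31 ± 0.09 in shHMGA2-2 (edgeR, adjusted p = 2.17e-11 and 2.11e-16). All 4 markers of the line (VIM, CD44, EGFR and AXL) were expressed in every group, but they moved with the groups. EGFR and AXL were lower in both lines (log2 changes of -0.75 and -1.54, and of -0.42 and -0.94), CD44 was higher in both (0.25 and 0.41), and VIM passed in shHMGA2-2 alone (-0.17). None of 12 leukocyte markers passed the filter on low counts, and their summed level was at most 1.83 CPM. The summed level of 10 luminal breast markers was 282 to 285 CPM in shNC, 280 to 332 in shHMGA2-1 and 415 to 453 in shHMGA2-2. That sum held both directions: of 7 luminal markers tested in shHMGA2-2, 3 were called higher (GATA3 by 2.47, KRT8 by 1.25 and ERBB2 by 0.45 on the log2 scale) and 2 lower, KRT19 (-2.46) and FOXA1, which went from 6.77 and 5.79 CPM in shNC to 0.295 and 0.0573. The part of these markers in the results below was not tested.

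Promoter sequence is shown for members that the results turn on, because E2F letters were found near the start of 18 members. The windows below are 30 bases each, printed on the strand of the gene, with the searched E2F letters (TTTCGCG or TTTGGCG, on either strand) in capitals. They come from the RefSeq promoter table (build GRCh38.p14), which covers 250 bases before to 50 bases after a start site. Shown are the 8 named members with a match and the largest change in shHMGA2-2.
POLA2: gttggctcccggTTTCGCGcatgcgtgcac
MCM7: tggggggcgacgTTTCGCGccaatttcggt
CDC6: tcgaggccgggcTTTGGCGggaggtgggaa
CDT1: gcccgcgggaaaTTTGGCGggaaccgcgcc
MCM2: acgtgaaccactTTTCGCGCGAAAcctggt
CHAF1A: cgccgcggttccCGCCAAAtacgagcgcgg
MCM6: aagggctttgcaTTTGGCGCGAAAtccctt
MCM3: gagttcggaagtTTTCGCGccggggtggag

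The POLA2 window lies at chr11:65261897-65261926 on the plus strand and the MCM7 window at chr7:100101389-100101418 on the minus strand. Those of CDC6, CDT1, MCM2 and CHAF1A lie on the plus strand at chr17:40287839-40287868, chr16:88803750-88803779, chr3:127598401-127598430 and chr19:4402625-4402654. The remaining windows, of MCM6 (chr2:135876578-135876607) and MCM3 (chr6:52284729-52284758), lie on the minus strand. In MCM2 and MCM6 the capitals join overlapping matches on both strands. Of these 8 genes, 5 rose in shHMGA2-2 (POLA2, MCM7, MCM2, MCM6 and MCM3) and 3 fell (CDC6, CDT1 and CHAF1A).

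Promoters were found for 40 of the 47 members. The E2F letters occurred in 18 of these 40 members (45%), against 3.85% of 27305 genes in the promoter table and 6.33% of the 11185 of those that were tested here. Of the 18, 10 rose, 5 fell and 3 did not pass the test in shHMGA2-2, and of the 22 without the letters 6 rose, 8 fell and 8 did not pass. In shHMGA2-1, 2 of the 18 rose and 3 fell. Among all genes tested, 29.5% were called higher and 29.2% lower in shHMGA2-2, and 15.8% and 17.6% in shHMGA2-1. Calls among the other tested genes with the letters were not counted, and the split of members by direction depended on the scaling, as given below. Whether promoters with the letters go with a direction of change was therefore not tested. The CCAAT box (CCAAT, either strand) occurred in 23 of 40 members (57.5%) against 39.72% of all genes in the table and 42.83% of those tested here. The cell cycle homology region (CHR, TTTGAA or TTCGAA, either strand), an element of late cell cycle promoters, occurred in 3 of 40 (7.5%). The shares were 19.54% of all genes in the table and 15.57% of those tested here. A match is a description of letters and not evidence of binding.

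Levels were compared between genes in FPKM, which is per length. The clamp PCNA had the highest level in every group (means of 128, 149 and 183 FPKM in shNC, shHMGA2-1 and shHMGA2-2). POLA2, the regulatory subunit of DNA polymerase alpha, had the lowest (1.12, 1.21 and 2.34 FPKM). The median member stood at 16.9, 16.1 and 18.6 FPKM in the same order. The members thus covered a wide range of levels in each line.

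**Figure D1:**
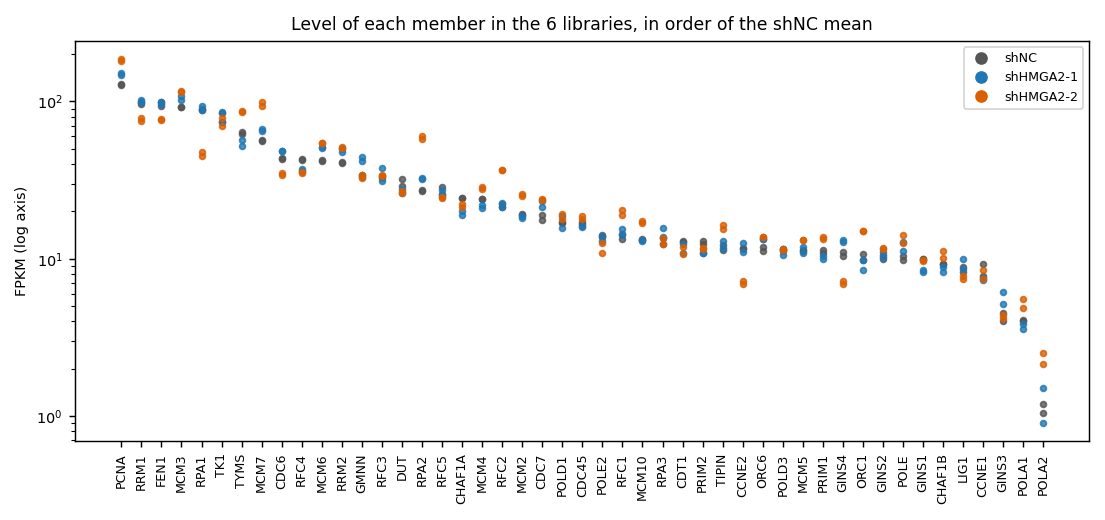
Level of each of the 47 members in FPKM (log axis) in the 6 libraries, with genes in order of their shNC mean and 1 point per library. PCNA lies highest and POLA2 lowest, and the shHMGA2-2 points of RPA1, RPA2, CCNE2 and GINS4 lie away from those of both other groups.

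To ask whether HMGA2 knockdown changed this program, each line was compared with shNC by edgeR's quasi-likelihood test in 1 model with 3 groups, and a gene was called at an adjusted p under 0.05 over the 16110 genes tested. In shHMGA2-1, 11 of 47 members were called (23.4%), against 33.4% of all genes tested. Of these, 4 were higher (MCM6, GMNN, GINS3 and RRM2) and 7 lower (MCM4, GINS1, PRIM2, RFC4, TYMS, DUT and CHAF1A). Among all genes tested 15.8% were called higher and 17.6% lower. The count in shHMGA2-1 depended on the controls, since 4 members were called without shNC replicate 1 and 3 without shNC replicate 2. It also depended on the scaling: under upper quartile scaling 17 were called, 12 of them higher and 5 lower. Of the 10 called members that are described with full values, CHAF1A alone kept its call in all 13 alternative fits, which do not include the 2-fold limit.

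In shHMGA2-2, 32 of 47 members were called (68.1%), against 58.7% of all genes tested. The calls were split between 17 higher and 15 lower, against 29.5% and 29.2% of all genes. Upper quartile scaling gave 21 higher and 9 lower and limma on FPKM 21 and 10, and upper quartile scaling also moved the median of all genes from 0.03 to 0.14 on the log2 scale. The members did not move as a block: within the same line the loader subunit RFC2 and the polymerase subunit POLA2 rose while RPA1 and CCNE2 fell.

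The changes were small. No member in shHMGA2-1 both passed the test and changed at least 2-fold, against 8.49% of all genes tested, and in shHMGA2-2 only RPA1 did (2.13%, against 21.3%). RPA2, with a log2 change that rounds to 1.00, lay just short of 2-fold. Genes of low level show larger changes, so the background was also taken over the 9869 genes whose mean level was at or above that of the lowest member (8.57 CPM), a choice made after seeing the data. POLA2 alone set that level, so this background is not matched to the level of most members. Among these genes, 3.89% in shHMGA2-1 and 12.5% in shHMGA2-2 passed both limits. The median size of change was 0.15 on the log2 scale among members in shHMGA2-1, against 0.19 among those 9869 genes and 0.26 over all genes tested. In shHMGA2-2 it was 0.26 among members, against 0.36 and 0.47.

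**Figure D2:**
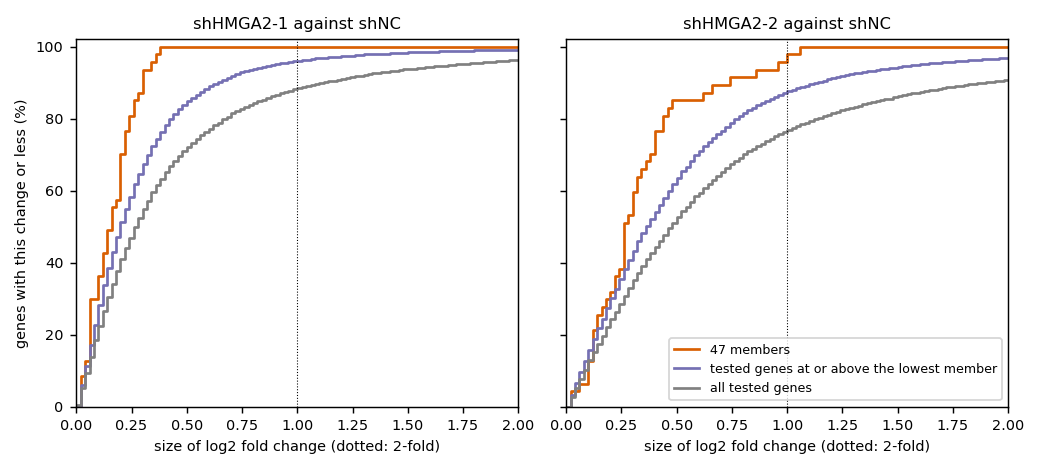
Share of genes (%) whose log2 fold change against shNC was of a given size or less, for the 47 members, for tested genes at or above the level of the lowest member, and for all tested genes, in shHMGA2-1 (left) and shHMGA2-2 (right). The curve of the members reaches 100% by a log2 change of 0.38 in shHMGA2-1 and 1.06 in shHMGA2-2, while the curves of the other genes run on beyond 2-fold.

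**Figure D3:**
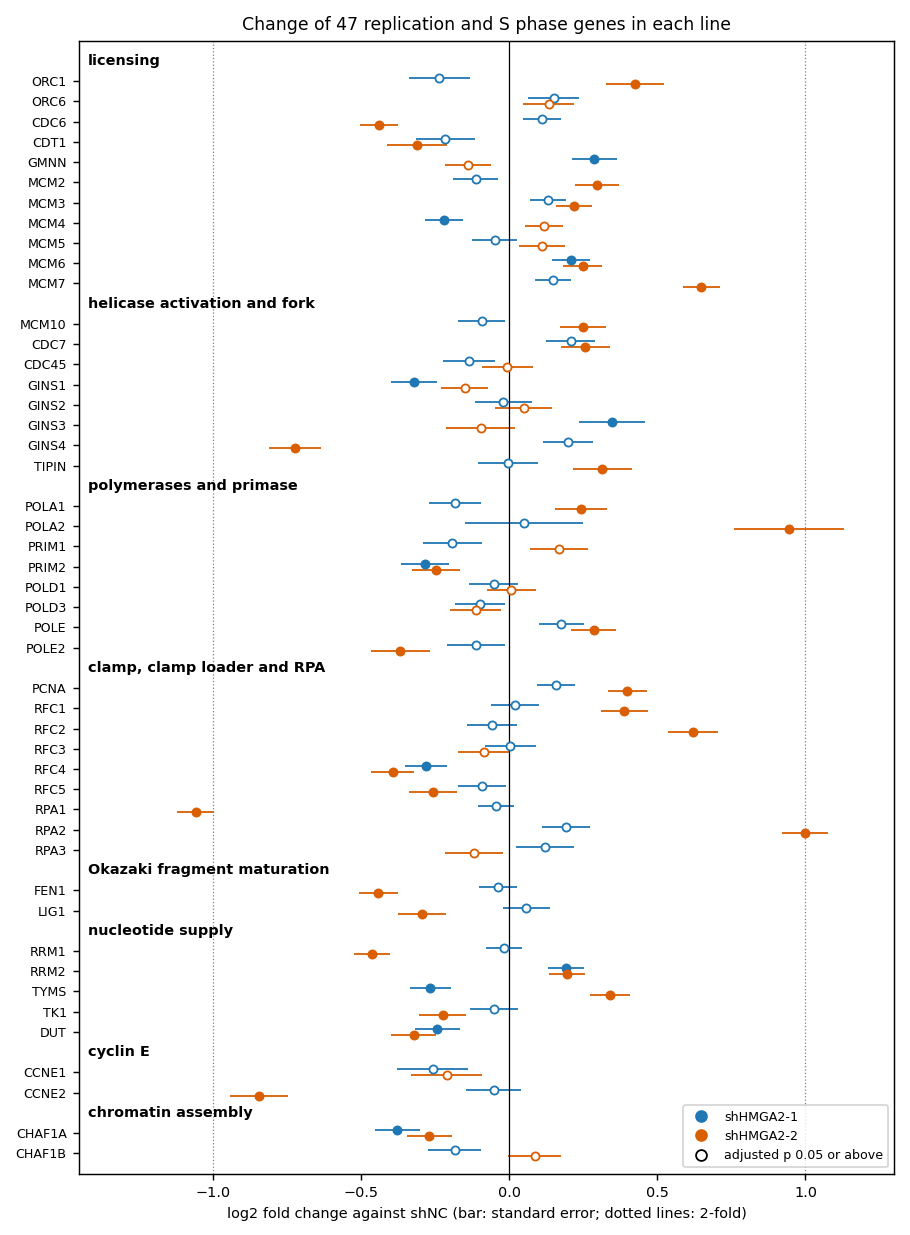
Log2 fold change against shNC of each member, grouped by role, in shHMGA2-1 (blue) and shHMGA2-2 (orange), with bars for the SE and filled points for an adjusted p under 0.05. Every group with more than 2 genes holds members on both sides of 0 in shHMGA2-2, and only RPA1 passes the dotted 2-fold lines.

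Calls by role, here and below, are to be read against the 33.4% and 58.7% of all genes called in shHMGA2-1 and shHMGA2-2. Of 11 licensing genes, 5 rose in shHMGA2-2 (ORC1, MCM2, MCM3, MCM6 and MCM7), 2 fell (CDC6 and CDT1) and 4 did not pass the test. In shHMGA2-1, GMNN and MCM6 rose and MCM4 fell. These splits became 8 higher and 1 lower in shHMGA2-2 and 5 and 0 in shHMGA2-1 under upper quartile scaling.

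Among the helicase subunits, MCM7 (chr7:100092728-100101940, minus strand) changed most. It stood at 258 and 262 CPM in shNC, compared with 289 and 287 in shHMGA2-1 and 402 and 414 in shHMGA2-2. Both shHMGA2-2 libraries lay above all others, and the change was 0.65 ± 0.06 (SE) on the log2 scale (adjusted p = 2.14e-09), or 1.57-fold. MCM6 stood at 181 and 184 CPM in shNC, against 207 and 214 in shHMGA2-1 and 218 and 215 in shHMGA2-2. It was raised to a like degree in both lines, by 0.21 ± 0.06 and 0.25 ± 0.06 on the log2 scale (adjusted p = 0.015 and 0.00208). The call in shHMGA2-2 was lost without shNC replicate 1, and that in shHMGA2-1 when either shNC library was left out. MCM2 and MCM3 rose in shHMGA2-2 by 0.30 ± 0.07 and 0.22 ± 0.06 (adjusted p = 0.00136 and 0.00326), and the call of MCM3 was lost when either was left out. MCM4 went the other way in shHMGA2-1, with 245 and 247 CPM in shNC against 214 and 208 there and 275 and 260 in shHMGA2-2. It fell by 0.22 ± 0.06 in shHMGA2-1 (adjusted p = 0.00943) and did not pass in shHMGA2-2 (log2 change of 0.12, adjusted p = 0.116), and the fall was not called under upper quartile scaling, with limma or when either shNC library was left out. MCM5 passed in neither line, with log2 changes of -0.05 and 0.11. The subunits of this hexamer thus differed in their calls. In FPKM the highest of the 6 stood 8.14 to 9.38 times the lowest over all libraries, a spread already present in shNC (8.14 and 8.20). FPKM here divides by the exonic size of the gene, which was 3645 bases for MCM3 and 7268 for MCM5, so the spread depends on that size.

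Of the loading factors, ORC1 rose and CDC6 and CDT1 fell in shHMGA2-2. CDC6, which recruits the helicase to origins, stood at 238 and 241 CPM in shNC, with 256 and 261 in shHMGA2-1 and 181 and 172 in shHMGA2-2. It fell by 0.44 ± 0.06 on the log2 scale in shHMGA2-2 (adjusted p = 2.98e-06) and had a log2 change of 0.11 in shHMGA2-1 that did not pass. ORC1, the largest subunit of the origin recognition complex, stood at 32.0 and 35.1 CPM in shNC, compared with 30.3 and 26.7 in shHMGA2-1 and 45.7 and 44.4 in shHMGA2-2. It rose by 0.42 ± 0.10 in shHMGA2-2 (adjusted p = 0.000699). CDT1, the partner of CDC6 in loading, fell by 0.31 ± 0.10 in shHMGA2-2 (adjusted p = 0.0108), a call lost under upper quartile scaling, with limma, and without shNC replicate 2 or shHMGA2-2 replicate 1. Its inhibitor GMNN stood at 86.2 and 88.6 CPM in shNC, against 103 and 111 in shHMGA2-1 and 82.0 and 76.9 in shHMGA2-2, and rose in shHMGA2-1 by 0.29 ± 0.08 (adjusted p = 0.00524), a call lost when either shNC library was left out. The log2 change of GMNN in shHMGA2-2 was -0.14 (adjusted p = 0.136). The FPKM ratio of GMNN to CDT1 was 2.62 and 2.63 in shNC, with 3.39 and 4.09 in shHMGA2-1 and 3.19 and 2.75 in shHMGA2-2. This ratio, like the others below, was chosen after the values were seen. ORC6 did not pass in either line.

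Among 8 genes of helicase activation and the fork, 3 rose (MCM10, CDC7 and TIPIN, by 0.25 to 0.31 on the log2 scale), 1 fell (GINS4) and 4 did not pass in shHMGA2-2. All 3 of these rises lost their call without shNC replicate 2 or without shHMGA2-2 replicate 1. GINS1, GINS2, GINS3 and GINS4 encode the subunits of one complex, and each had its own pair of calls in the lines. GINS4 stood at 63.2 and 59.2 CPM in shNC, compared with 70.5 and 69.9 in shHMGA2-1 and 38.3 and 35.9 in shHMGA2-2, and fell by 0.72 ± 0.09 in shHMGA2-2 (adjusted p = 1.64e-07). GINS1, at 83.1 and 84.1 CPM in shNC, was lower in shHMGA2-1, at 67.4 and 66.5 (-0.32 ± 0.08, adjusted p = 0.00255), a call lost without shNC replicate 2. GINS3, at 21.3 and 24.0 CPM in shNC, was higher in shHMGA2-1, at 31.0 and 26.6 (0.35 ± 0.11, adjusted p = 0.019), a call lost by DESeq2, with limma on log2(FPKM + 1), and without shNC replicate 1 or shHMGA2-1 replicate 1. GINS2 was called in neither line and had log2 changes of -0.02 and 0.05. CDC45, the partner of GINS in the active helicase, was also called in neither line, with log2 changes of -0.13 and -0.01.

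Of 8 polymerase and primase genes, POLA1, POLA2 and POLE rose and PRIM2 and POLE2 fell in shHMGA2-2. POLA2 stood at 6.95 and 6.03 CPM in shNC, against 8.30 and 5.13 in shHMGA2-1 and 11.6 and 13.4 in shHMGA2-2. It rose by 0.95 ± 0.19 (adjusted p = 0.000117), the widest error of any member, and it was also the member with the fewest counts. PRIM2, the large subunit of primase, stood at 72.8 and 76.9 CPM in shNC, with 60.8 and 62.2 in shHMGA2-1 and 63.8 and 62.6 in shHMGA2-2. Both lines lay below both controls, by 0.28 ± 0.08 and 0.25 ± 0.08 on the log2 scale (adjusted p = 0.00849 and 0.0118), although the call in each line was lost without shNC replicate 2, and that in shHMGA2-2 also when either of its own libraries was left out, under upper quartile scaling and with limma. The accessory subunit POLE2 fell by 0.37 in shHMGA2-2 while the catalytic subunit POLE rose by 0.29. POLE2 lost its call without shHMGA2-2 replicate 2, POLE without that library or shNC replicate 1, and POLA1 without shHMGA2-2 replicate 1 or either shNC library. PRIM1, POLD1 and POLD3 passed in neither line. PRIM1 overlaps the abundant gene NACA on the same strand, so its reads could be shared.

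The clamp, its loader and RPA held the largest changes. Of 9 genes, 4 rose (PCNA, RFC1, RFC2 and RPA2), 3 fell (RFC4, RFC5 and RPA1) and 2 did not pass (RFC3 and RPA3) in shHMGA2-2, whereas RFC4 alone was called in shHMGA2-1. The fall of RFC5 (0.26) lost its call under upper quartile scaling, with limma, and without shNC replicate 1 or shHMGA2-2 replicate 2. RPA1 (chr17:1829702-1900082, plus strand), the large DNA-binding subunit of RPA, stood at 511 and 510 CPM in shNC, compared with 505 and 486 in shHMGA2-1 and 255 and 236 in shHMGA2-2. Both shHMGA2-2 libraries lay far below the other 4, at a mean level 2.08-fold lower than in shNC, a log2 change of -1.06 ± 0.06 (adjusted p = 3.43e-13). RPA2 (chr1:27891524-27914746, minus strand), the middle subunit of the same complex, stood at 56.7 and 55.8 CPM in shNC, against 64.2 and 64.3 in shHMGA2-1 and 111 and 114 in shHMGA2-2, and rose by 1.00 ± 0.08 (adjusted p = 7.02e-11). Subunits of one complex thus moved in opposite directions in the same libraries. The FPKM ratio of RPA1 to RPA2 was 3.25 and 3.29 in shNC, with 2.84 and 2.72 in shHMGA2-1 and 0.825 and 0.750 in shHMGA2-2. RPA3, the small subunit, had log2 changes of 0.12 and -0.12, neither of which passed.

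PCNA stood at 188 and 186 CPM in shNC, compared with 205 and 214 in shHMGA2-1 and 246 and 249 in shHMGA2-2. It rose by 0.40 ± 0.06 on the log2 scale in shHMGA2-2 (adjusted p = 1.02e-05), and its log2 change of 0.16 in shHMGA2-1 did not pass (adjusted p = 0.062). Within the loader, RFC2 stood at 49.5 and 51.6 CPM in shNC, against 49.3 and 47.8 in shHMGA2-1 and 78.8 and 76.6 in shHMGA2-2, a rise of 0.62 ± 0.08 (adjusted p = 7.47e-07). RFC4, at 134 and 134 CPM in shNC, was lower in both lines, at 108 and 113 in shHMGA2-1 and 104 and 100 in shHMGA2-2 (-0.28 ± 0.07 and -0.39 ± 0.07, adjusted p = 0.0037 and 5.39e-05), and the call in shHMGA2-1 was lost when either shNC library was left out. The FPKM ratio of RFC2 to RFC4 was 0.499 and 0.523 in shNC, with 0.622 and 0.572 in shHMGA2-1 and 1.02 and 1.04 in shHMGA2-2. RFC4 overlaps the abundant gene EIF4A2 on the other strand, and the strand setting of the counting is not given in the sources used here.

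**Figure D4:**
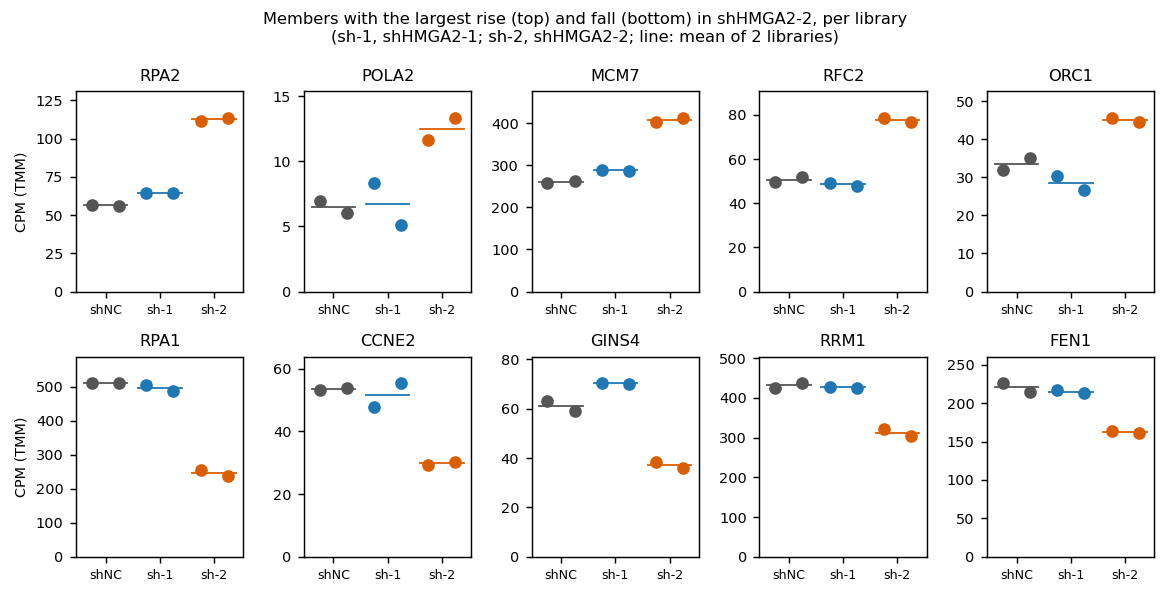
CPM in each library of the 5 members with the largest rise (top) and the 5 with the largest fall (bottom) in shHMGA2-2 against shNC, with 1 point per library, a line for the mean of 2 libraries and axes that start at 0. In all 10 panels the 2 shHMGA2-2 points lie outside the range of the other 4 points. The genes were picked by their change in this comparison, so a gap from shNC follows from the choice. Of all genes tested, 58.7% were called in it, and the share with such a gap was not counted.

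Both genes of Okazaki fragment maturation fell in shHMGA2-2 and neither was called in shHMGA2-1. The flap endonuclease FEN1 stood at 227 and 215 CPM in shNC, compared with 217 and 213 in shHMGA2-1 and 164 and 161 in shHMGA2-2 (-0.44 ± 0.07, adjusted p = 3.32e-06). It overlaps FADS2 on the same strand, so reads of the pair could be shared. The ligase LIG1 fell by 0.29 ± 0.08 (adjusted p = 0.00299), a call lost under upper quartile scaling, with limma and without shNC replicate 2.

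All 5 nucleotide supply genes were called in shHMGA2-2, where 58.7% of all genes tested were. RRM2 and TYMS were higher and RRM1, TK1 and DUT lower. RRM1, the large subunit of ribonucleotide reductase, stood at 424 and 438 CPM in shNC, against 427 and 426 in shHMGA2-1 and 321 and 304 in shHMGA2-2, a fall of 0.46 on the log2 scale (SE 0.06, adjusted p = 5.01e-07). RRM2, the small subunit whose level is known to follow the cell cycle, rose in both lines by 0.19 ± 0.06 (adjusted p = 0.0163 and 0.00811), calls that were lost in both lines when either shNC library was left out, and in shHMGA2-2 also without its replicate 1. The FPKM ratio of RRM2 to RRM1 moved from 0.421 and 0.417 in shNC to 0.469 and 0.499 in shHMGA2-1 and to 0.656 and 0.667 in shHMGA2-2. TYMS, which makes thymidylate, was the member called in opposite directions. It stood at 156 and 161 CPM in shNC, with 137 and 127 in shHMGA2-1 and 204 and 198 in shHMGA2-2, with no overlap between the groups. The changes were -0.27 ± 0.07 and 0.34 ± 0.07 (adjusted p = 0.00435 and 0.000157), and the first was lost without shNC replicate 2. TYMS overlaps ENOSF1 on the other strand. The salvage kinase TK1 fell by 0.22 ± 0.08 in shHMGA2-2 (adjusted p = 0.0193), a call lost under upper quartile scaling, with limma, and without shNC replicate 1 or shHMGA2-2 replicate 1, and DUT, which removes dUTP, fell in both lines by 0.24 and 0.32. Both DUT calls were lost without shNC replicate 1, and the call in shHMGA2-1 also under upper quartile scaling and with limma.

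Cyclin E drives entry into S phase with CDK2. CCNE2 stood at 53.2 and 53.9 CPM in shNC, compared with 47.7 and 55.5 in shHMGA2-1 and 29.4 and 30.2 in shHMGA2-2, and fell by 0.84 ± 0.10 in shHMGA2-2 (adjusted p = 6.09e-08), or 1.80-fold. It overlaps INTS8 and NDUFAF6 on the other strand. CCNE1 did not pass in either line (log2 changes of -0.26 and -0.21, adjusted p = 0.107 and 0.138). CHAF1A, the large subunit of the chromatin assembly factor that deposits histones behind the fork, stood at 110 and 110 CPM in shNC, against 85.7 and 83.4 in shHMGA2-1 and 93.9 and 88.4 in shHMGA2-2. It fell in both lines, by 0.38 ± 0.07 and 0.27 ± 0.07 (adjusted p = 0.000348 and 0.00342), and the second call was lost under upper quartile scaling and without shHMGA2-2 replicate 2. Its partner CHAF1B passed in neither.

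The lines share their controls, so their calls are given side by side. MCM6 and RRM2 were called higher in both lines, and PRIM2, RFC4, DUT and CHAF1A lower in both, while 22.5% of all genes tested were called in the same direction in both. TYMS was called in opposite directions, as were 3.16% of all genes. Of the remaining 40 members, 4 were called in shHMGA2-1 alone, 25 in shHMGA2-2 alone and 11 in neither (7.78%, 33.1% and 33.5% of all genes). Being called in one line alone does not show that the lines differ, and so the lines were also compared directly.

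Between the knockdown lines, 26 of 47 members were called (55.3%), against 50.2% of all genes tested, with 15 higher and 11 lower in shHMGA2-2 (24.5% and 25.7% of all genes). Upper quartile scaling gave 17 and 9. At 2-fold or more 1 member passed, RPA1, against 15.1% of all genes and 7.91% of genes at or above the level of the lowest member. RPA1 was 1.01 ± 0.06 lower and GINS4 0.92 ± 0.09 lower on the log2 scale in shHMGA2-2 than in shHMGA2-1 (adjusted p = 1.2e-12 and 3.79e-09). POLA2 and RPA2 were higher by 0.89 ± 0.18 and 0.81 ± 0.08 (adjusted p = 0.000238 and 4.02e-09). TYMS, called in opposite directions against shNC, differed by 0.61 ± 0.07 (adjusted p = 7.9e-08). MCM6 and RRM2 differed by 0.04 and 0.00 and passed no test of the difference.

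When the 4 shHMGA2 libraries were taken as 1 group, edgeR called 0 of 47 members, against 5.26% of all genes tested. At an unadjusted p under 0.05 there were 9 of 47, against 4106 of the 16110 genes tested. In that model the difference between the lines counts as error, and the common biological coefficient of variation was 0.291, against 0.0583 in the model with 3 groups. DESeq2 called 5 in the same comparison, MCM6 higher and PRIM2, RFC4, DUT and CHAF1A lower, with log2 changes of -0.35 to 0.22, while limma on FPKM called 0. The mean of both contrasts, tested in the model with 3 groups, gave 25 calls of 47, 11 higher and 14 lower, and called 49.8% of all genes tested (23.7% higher and 26% lower).

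Other genes of the cell cycle were counted from lists, to be read against the 33.4% and 58.7% of all genes called in shHMGA2-1 and shHMGA2-2. Of 36 further replication genes, 3 were called higher and 5 lower in shHMGA2-1 and 10 and 11 in shHMGA2-2 (22.2% and 58.3% called), or 3 and 3 and 11 and 6 under upper quartile scaling. NASP, a histone chaperone, stood at 181 and 176 CPM in shNC, with 177 and 179 in shHMGA2-1 and 330 and 305 in shHMGA2-2 (0.83 ± 0.07 on the log2 scale in shHMGA2-2). WDHD1, which links the helicase to polymerase alpha, fell in both lines, by 0.49 and 0.31.

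Of 24 S phase regulators and targets, 5 were called higher and 7 lower in shHMGA2-1, and 8 and 9 in shHMGA2-2 (50% and 70.8% called). The activator E2F1 rose in shHMGA2-2 by 0.92 ± 0.09 (adjusted p = 8.67e-09) and E2F2 fell in shHMGA2-1 by 0.73 ± 0.15 (adjusted p = 0.00056). E2F7, an atypical E2F that represses its targets, stood at 190 and 199 CPM in shNC, compared with 109 and 122 in shHMGA2-1 and 87.4 and 77.8 in shHMGA2-2. It fell in both lines, by 0.75 ± 0.08 and 1.24 ± 0.08. E2F5, usually counted among the repressors, fell by 1.47 ± 0.12 in shHMGA2-2. E2F6 went the other way and was called higher in both lines, by 0.44 and 0.57. TFDP1, of the same list, fell in both, by 0.61 and 1.14. E2F4 and E2F7 were the members of this list that edgeR also called with the 4 shHMGA2 libraries as 1 group (log2 changes of -0.67 and -0.97, adjusted p = 0.035 and 0.037), a fit in which E2F1 did not pass.

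Of 36 mitosis genes, 14 were called higher and 2 lower in shHMGA2-1, and 17 and 6 in shHMGA2-2 (44.4% and 63.9% called). The first split was 7 and 1 by DESeq2, 20 and 0 under upper quartile scaling and 5 and 0 without shNC replicate 1. The split in shHMGA2-2 was 10 and 6 without shNC replicate 1 and 22 and 6 under upper quartile scaling. UBE2C, which helps to degrade cyclins at the end of mitosis, rose in both lines by 0.40 and 0.98, and the phosphatase CDC25C rose by 0.73 and 0.31, the latter a call lost when either shNC library or shHMGA2-2 replicate 2 was left out. The proliferation antigen gene MKI67 went from 1007 and 1042 CPM in shNC to 896 and 914 in shHMGA2-1 and 734 and 619 in shHMGA2-2 (log2 changes of -0.18 and -0.60). Its call in shHMGA2-2 held in all 13 alternative fits, and that in shHMGA2-1 (adjusted p = 0.0393) was lost in 8 of them, DESeq2 and upper quartile scaling included. MKI67 thus went against most of the called mitosis genes. The median log2 changes of that list were 0.15 and 0.16, against 0.01 and 0.03 over all genes tested. Of all genes tested, 15.8% were called higher and 17.6% lower in shHMGA2-1, and 29.5% and 29.2% in shHMGA2-2.

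Of 13 G1 cyclins, CDK inhibitors and RB1, 11 were tested, and 2 were called higher and 2 lower in shHMGA2-1 and 2 and 4 in shHMGA2-2 (36.4% and 54.5% called). The CDK inhibitor CDKN1A stood at 23.7 and 26.7 CPM in shNC, against 12.0 and 13.9 in shHMGA2-1 and 16.2 and 17.9 in shHMGA2-2, and fell in both lines (by 0.96 ± 0.13 and 0.56 ± 0.12). CDKN1B rose in shHMGA2-1 by 0.55, and CCND1 fell in shHMGA2-2 by 0.82. The calls higher in shHMGA2-2 were CCND2 and CDKN1C, both at most 2.13 CPM in any library, and DESeq2 did not call CCND2.

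The changes in shHMGA2-2 were also set beside those of chromosomal neighbours. For each member the nearest 10 tested genes on each side were taken (16 in all for TYMS), a comparison chosen after seeing the data. Around RPA1, 15 of 20 neighbours were lower in shHMGA2-2 and their median log2 change was -0.51. The neighbours of CCNE2 had a median of -0.62, with 18 of 20 lower, and those of RFC4 a median of -0.56. RFC2, ORC1, POLA2 and RPA2 lay among genes with medians of 0.61, 0.59, 0.47 and 0.37. GINS4 fell by 0.72 among neighbours with a median of -0.12. Other members went against their neighbours, such as PCNA (0.40 against a median of -0.12), TYMS (0.34 against -0.08), POLE2 (-0.37 against 0.11), DUT (-0.32 against 0.07), MCM6 (0.25 against -0.29) and MCM3 (0.22 against -0.25). These examples were chosen after their values were seen.

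Across the 47 members, Pearson's r between a member's own log2 change and the median of its neighbours was 0.645 in shHMGA2-2 and 0.331 in shHMGA2-1. Over all genes tested with neighbours r was 0.263 and 0.176, and over those at or above the level of the lowest member 0.321 and 0.213. By rank the gap was smaller. Spearman's rho was 0.539 and 0.268 among members, 0.386 and 0.210 over all genes, and 0.447 and 0.226 at that level. These are descriptions across genes, which share the same 6 libraries and, for near neighbours, the same stretch of chromosome. Of the 32 members called in shHMGA2-2, 23 (71.9%) had the sign of their neighbours' median, against 70.6% of all called genes, a share near that background. In shHMGA2-1, 9 of the 11 called members had it (81.8%), against 62.9% of all called genes. Those 11 calls depended on the controls and the scaling, as given above. DNA copy number was not measured in these libraries.

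**Figure D5:**
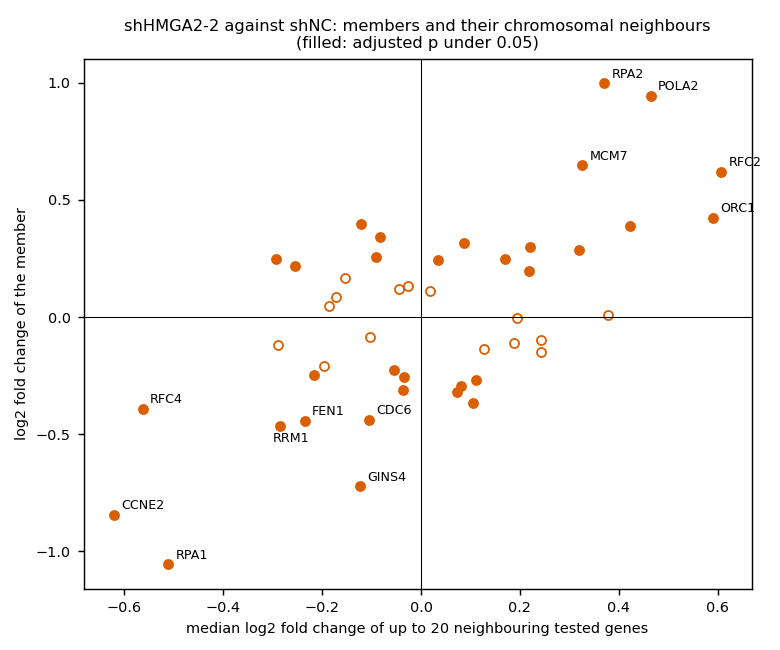
Log2 fold change of each member in shHMGA2-2 against shNC (vertical) by the median log2 fold change of up to 20 neighbouring tested genes (horizontal), 1 point per member, filled where the adjusted p was under 0.05. RPA1, CCNE2 and RFC4 lie at the lower left, RPA2, POLA2, RFC2 and ORC1 at the upper right, and GINS4 lies low with a neighbour median of -0.12.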

How the data were processed

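Captured mRNA of MDA-MB-231 cells was read in 6 libraries (2 per group), and groups were taken from the sample titles. The authors deposited 1 table with raw counts and FPKM values per gene and library. The submitters' processing notes name HISAT2 (2.2.1), HTSeq (0.6.1) and GRCh38.p13; the strand setting is not given in the sources used here. The deposited FPKM values were recomputed from counts, exonic size and library total within 0.01 for 100% of values. Totals of 16461178 to 17167293 counts set the precision, and every member exceeded 3 counts, the upper limit compatible with a count of 0, which covers counting error only. Libraries of 1 group differed by more than counting noise (chi-square per degree of freedom over members of 2.04 to 5.43). Coordinates of genes are those of the table.

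Counts were analysed with edgeR (4.0.16, R 4.3.3): TMM (factors 0.958 to 1.05), filterByExpr by group, the quasi-likelihood test and Benjamini-Hochberg adjustment over 16110 genes. Calls had an adjusted p under 0.05. The scripts were tested on simulated data. Alternatives were DESeq2 (1.42.0), upper quartile and RLE scaling, no filter, limma (3.58.1) on log2(FPKM + 1) or log2(FPKM + 0.1), the replicate number as a block, each library left out, a 2-fold limit and the mean of both contrasts. FPKM served for levels between genes.

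Members and gene lists were chosen with earlier results of these data known. Genes named with full values were 16 core members and the 5 called members with the largest rise and the 5 with the largest fall in each comparison of 3 groups. Members called in opposite directions were added. The rule also picked the 2 largest rises and falls of each other list, but only some of these are described. Among those left out are CDK6 (-0.94 in shHMGA2-1) and, in shHMGA2-2, AURKB (0.91), CDC25A (0.66), MTBP (-0.70) and BUB3 (-0.64). Others, such as POLE2, LIG1 and E2F4, were named after their values were seen. Of the 55 RefSeq promoters of members, 49 ended in a GENCODE transcript of the gene's strand and 0 on the other strand. The promoters of GINS4, MCM4, POLD3, MCM5, RPA2, CCNE2 and RPA3 were not analysed here. Near-identical copies had at most 6.5 counts on average (DUTP2).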

Additional observations from a re-analysis of the deposited data

Results flagged for a closer look

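For 17 of the 29 named members the change against shNC differed between the knockdown lines. The test was edgeR's direct one of shHMGA2-2 against shHMGA2-1 (adjusted p under 0.05 over 16110 genes), which called 50.2% of all genes. The named members include by rule those with the largest called changes in this comparison, so their count is no separate support. All 17 kept this call in the 13 alternative fits, and with a 2-fold limit RPA1 alone kept it. The lines share the same 2 control libraries, which cancel in this difference, and each line may be a single clone, so that the shRNA and the clone cannot be told apart.

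The difference, shHMGA2-2 minus shHMGA2-1 on the log2 scale, was positive for POLA2 (0.89), RPA2 (0.81), RFC2 (0.68), ORC1 (0.66), TYMS (0.61), MCM7 (0.50), MCM2 (0.41), MCM4 (0.34) and PCNA (0.24). It was negative for RPA1 (-1.01), GINS4 (-0.92), CCNE2 (-0.79), CDC6 (-0.55), RRM1 (-0.45), GINS3 (-0.44), GMNN (-0.43) and FEN1 (-0.41). ORC1, MCM2, MCM4 and TYMS had changes of opposite sign against shNC in the lines, at -0.24 and 0.42, -0.11 and 0.30, -0.22 and 0.12, and -0.27 and 0.34, and of these only TYMS was called in both. CDC6, GMNN, GINS3 and GINS4 had the reverse pattern, positive in shHMGA2-1 and negative in shHMGA2-2.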

How the results depend on the processing

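In shHMGA2-1, the 11 calls became 17 under upper quartile scaling and 17 with limma on log2(FPKM + 0.1), 3 to 14 with 1 library left out, and 0 with a 2-fold limit. In shHMGA2-2 the 32 calls became 1 with a 2-fold limit and 23 to 34 with 1 library left out. Between the lines the 26 calls became 1 with a 2-fold limit and 23 to 29 with 1 library left out. With all shHMGA2 libraries as 1 group, the 0 calls became 5 by DESeq2 and 25 for the mean of both contrasts, and stayed at 0 with any library left out. Leaving 1 library in a group assumes that it varies like the others. The replicate numbers did not pair the samples: deviations of same-numbered libraries correlated at -0.02, 0.00 and -0.10 over 16110 genes. With the replicate number as a block, 11, 32, 25 and 0 members were called in the same order.

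No named call changed its direction in any of the 13 alternative fits, which leave out the 2-fold limit. Of the 10 named calls in shHMGA2-1, CHAF1A alone was kept in all 13 fits, of 22 in shHMGA2-2, 15 were, and of 17 between the lines, 17 were. In shHMGA2-2 the calls of CDT1, TK1, CHAF1A, PRIM2, MCM3, MCM6 and RRM2 were lost somewhere. POLA2, the member with the fewest counts, had the widest error.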
